A study of Mus musculus with 2 samples.

Results

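Primitive red blood cells are the first blood cells of the mouse embryo, and 550 of the 11893 kept barcodes of the e13.5 eye cup data were chosen as such by their globin transcripts. A droplet barcode stands for a cell, and a unique molecular identifier (UMI) for a captured transcript. A barcode was kept with at least 200 genes and at most 15% mitochondrial UMIs. It was selected as red when genes named Hbb- or Hba- held at least 20% of its UMIs. It was selected as primitive when *Hbb-y* and *Hbb-bh1* together had more UMIs than *Hbb-bs* and *Hbb-bt* together. The other 177 red barcodes are called definitive, and the 11166 barcodes under the globin limit are called the rest.

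The study compared eye cups of *Myrf fl/fl* embryos, the control, with those of *Rx>cre Myrf fl/fl* embryos, the mutant, in which Cre driven by an *Rx* transgene acts in the eye field. Both groups carry the floxed *Myrf* alleles, and the stage was e13.5 in both. Each library pooled 3 samples and there was 1 library per genotype, so differences between genotypes have no replicate error and no test. The eyes had cornea, lens and optic nerve removed and were dissociated with papain. The control library held 158 primitive and 63 definitive barcodes, and the mutant library 392 and 114.

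Primitive red cells form in the blood islands of the yolk sac, enter the circulation with their nuclei and mature there together. Definitive red cells form later, in the fetal liver, and lose the nucleus before they are released. Hemoglobin joins alpha type and beta type chains. Primitive cells use the embryonic chains of *Hbb-y* (epsilon y), *Hbb-bh1* (beta h1) and *Hba-x* (zeta) beside the adult alpha chains of *Hba-a1* and *Hba-a2*, and definitive cells use the adult beta chains of *Hbb-bs* and *Hbb-bt*. While primitive cells mature, beta h1 is known to give way to epsilon y, and zeta to alpha.

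The beta type genes lie side by side on the minus strand of chromosome 7 of GRCm38 (mm10), in the order of *Hbb-bt* (103812524 to 103813996), *Hbb-bs* (103826534 to 103828096), *Hbb-bh1* (103841637 to 103843164) and *Hbb-y* (103851749 to 103853216). The alpha type genes lie on the plus strand of chromosome 11, with *Hba-x* (32276400 to 32278116), *Hba-a1* (32283511 to 32284465) and *Hba-a2* (32296489 to 32297298). Some of these genes are near copies. The coding sequences of *Hba-a1* and *Hba-a2* differ at 1 of 426 bases and those of *Hbb-bs* and *Hbb-bt* at 1 of 441 bases. The 3′ untranslated parts, where reads of 3′ ends can also lie, were not compared. The split of UMIs within each pair is therefore treated as uncertain. *Hbb-y* and *Hbb-bh1* differ at 104 of 441 bases, and *Hba-x* and *Hba-a1* at 163 of 426 bases.

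The promoters of the embryonic and adult genes are shown because the cells were told apart by the transcripts made from them. Each is the 150 bases before the transcription start of RefSeq, read 5′ to 3′ on the strand of the gene in GRCm38.p6. Capitals mark AGATAA or TGATAA, the letters bound by GATA factors, CACCC, the letters bound by Klf1 and related factors, and CCAAT, each on either strand, and TATAA on the strand of the gene. Some CCAAT matches of *Hbb-bt* touch each other, and the GENCODE annotation starts several of these genes farther upstream than RefSeq does. *Hbb-bh1* is named only.

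*Hbb-y*, chr7:103853208-103853357, minus strand: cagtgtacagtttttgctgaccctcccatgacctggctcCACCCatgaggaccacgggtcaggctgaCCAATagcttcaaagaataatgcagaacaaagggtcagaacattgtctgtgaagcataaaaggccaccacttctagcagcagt
*Hba-x*, chr11:32276450-32276599, plus strand: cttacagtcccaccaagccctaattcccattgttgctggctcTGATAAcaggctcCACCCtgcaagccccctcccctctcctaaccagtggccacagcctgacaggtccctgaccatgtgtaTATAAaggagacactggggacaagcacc
*Hbb-bs*, chr7:103827929-103828078, minus strand: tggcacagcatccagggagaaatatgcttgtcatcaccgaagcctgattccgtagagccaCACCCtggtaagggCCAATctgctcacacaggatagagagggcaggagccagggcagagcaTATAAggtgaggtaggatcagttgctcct
*Hbb-bt*, chr7:103813924-103814073, minus strand: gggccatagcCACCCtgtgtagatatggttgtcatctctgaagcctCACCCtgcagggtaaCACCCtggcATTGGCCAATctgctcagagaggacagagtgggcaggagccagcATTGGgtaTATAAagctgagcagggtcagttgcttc
*Hba-a1*, chr11:32283522-32283671, plus strand: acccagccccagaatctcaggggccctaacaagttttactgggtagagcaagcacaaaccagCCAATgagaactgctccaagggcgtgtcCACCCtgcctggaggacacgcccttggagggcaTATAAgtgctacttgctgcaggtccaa

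Every promoter shown held CACCC, which 37.4% of all 32851 promoters hold in a window of this length. *Hbb-bt* held it 3 times and each of the others 1 time. CCAAT, held by 24.5% of all promoters, was matched in every shown promoter but that of *Hba-x*. The GATA letters, held by 9.65% of all promoters, were matched only in the promoter of *Hba-x*, from 108 to 103 bases before the start. TATAA, held by 9.99%, was matched in all of them but that of *Hbb-y*.

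Red barcodes formed separate groups by the embryonic share, which is *Hbb-y* plus *Hbb-bh1* as a percent of beta globin UMIs. Since this share chose the members, it is given as a description. In the control 145 of 221 red barcodes had a share of 75% or more and 57 had a share under 1%, and in the mutant library these were 377 and 104 of 506 red barcodes. Only 2 control and 1 mutant barcodes lay between 25% and 50%, and 13 and 15 between 50% and 75%. The closest members inside the limit had 50.2% in control and 56.9% in mutant barcodes, and the closest barcodes outside had 49.5% and 42.9%. At the globin limit the closest members had 24.7% and 24.8% globin, and the closest barcodes outside 17.6% and 18.4%.

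**Figure D1:**
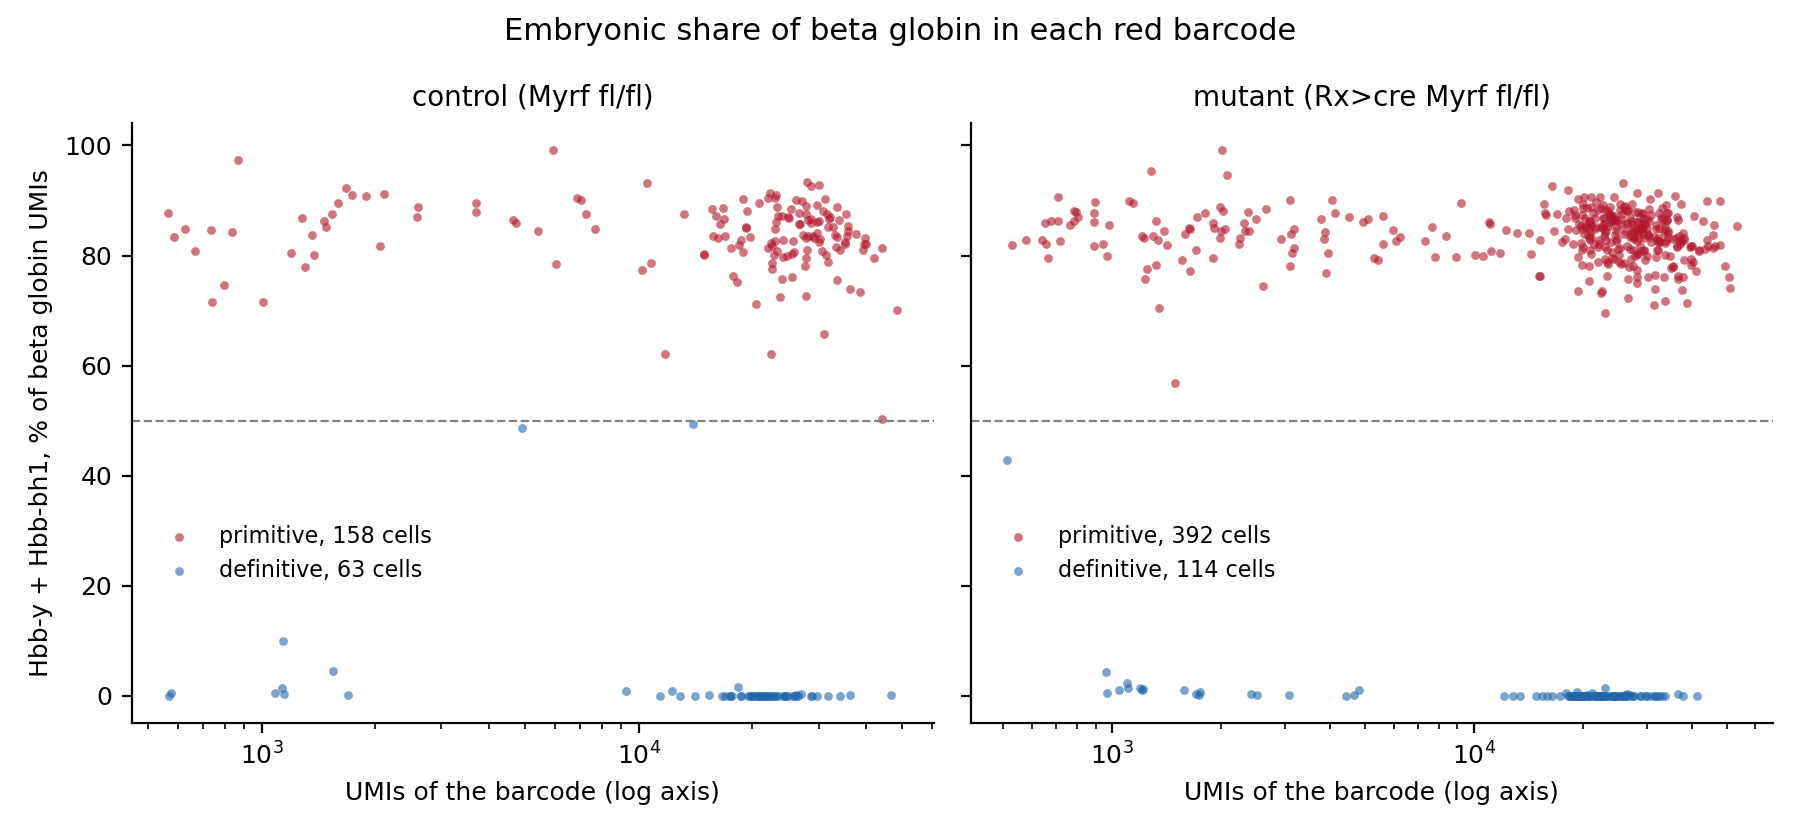
Each point is a red barcode, with its UMIs on a log axis and its embryonic share of beta globin UMIs in percent, for the control library (left) and the mutant library (right). The dashed line is the limit between primitive and definitive. The medians of the primitive barcodes were 84.0% and 84.2%, and few barcodes lay near the limit.

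The makeup of globin transcripts in primitive barcodes was nearly the same in both libraries. A count of UMIs at the 3′ end does not grow with transcript length, so globin genes were compared as shares of globin UMIs without scaling by length. *Hbb-y* took 55.6% of the globin UMIs of primitive barcodes in control and 57.4% in mutant barcodes, and *Hba-x* took 10.1% and 10.8%. Among alpha globin UMIs alone, *Hba-a1* took 43.9% and 42.1% and *Hba-x* 31.1% and 34.8%, and *Hba-a2* held 8.12% and 7.13% of all globin UMIs. Adult beta chains were present too, as *Hbb-bs* took 4.74% and 4.26% and *Hbb-bt* 6.91% and 7.23%. *Hbb-bh1* was low, at 0.193% and 0.246%.

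**Figure D2:**
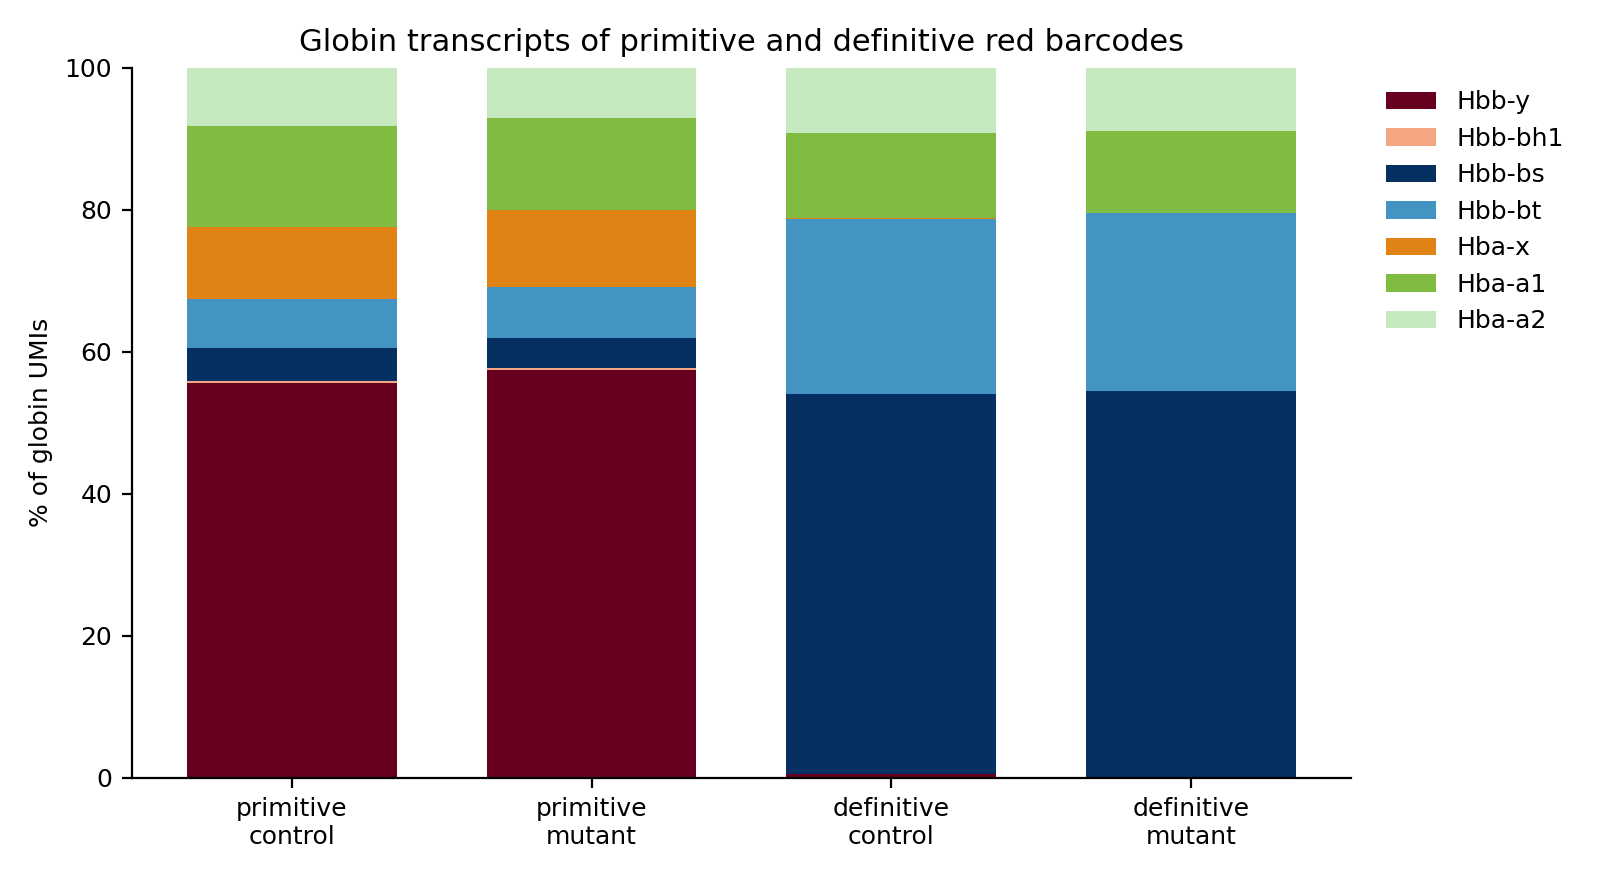
Bars give the percent of globin UMIs held by each globin gene, summed over the barcodes of a class in a library. *Hbb-y* is the largest part of the primitive bars and *Hbb-bs* the largest part of the definitive bars.

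All 3 markers that define the cell type were present in the members, which the rule fixes in large part. *Hbb-y* was found in 158 of 158 control and 392 of 392 mutant members, at a median of 11092 and 11480 UMIs per barcode. *Hba-x* was also found in every member, at a median of 1608 and 1875 UMIs. *Hbb-bh1* was found in 89.9% and 93.6% of members, at a median of 16.5 and 24.5 UMIs. In the rest *Hbb-y* had a median of 2.00 and 5.00 UMIs, and the definitive barcodes had the same medians.

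*Hba-x* was not used to part primitive from definitive barcodes. It was 31.1% of alpha globin UMIs in control and 34.8% in mutant primitive barcodes, against 0.602% and 0.0602% in definitive barcodes. Of the 1347 *Hba-x* UMIs of control definitive barcodes, 1062 lay in a single barcode. The share of *Hba-x* varied widely among members, with the middle 50% of control barcodes between 21.9% and 38.4% and of mutant barcodes between 23.4% and 41.9%. *Hbb-bh1* made up 0.347% and 0.426% of *Hbb-y* plus *Hbb-bh1* UMIs in the sums.

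*Hbb-bh1* was also found in 23.8% of control and 19.3% of mutant definitive barcodes, with most of its UMIs in a few of them. In the control library 5 definitive barcodes held 74.7% of the 561 UMIs of that class, and in the mutant library 5 held 86.2% of 565 UMIs. In the primitive class the same number of barcodes held 19.7% of 5268 and 10.6% of 16636 UMIs. The highest definitive barcodes had 168 and 214 UMIs of *Hbb-bh1*.

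The 2 adult beta genes were split differently in the 2 classes. *Hbb-bt* was 59.3% of *Hbb-bs* plus *Hbb-bt* UMIs in control and 62.9% in mutant primitive barcodes. It was 31.5% and 31.6% in definitive barcodes. Among the primitive barcodes with at least 100 such UMIs the share ran from 31.9% at the 5th percentile to 96.2% at the 95th in control and from 36.7% to 94.4% in mutant barcodes. Definitive barcodes were narrow, from 25.5% to 37.0% and from 25.4% to 37.5%. The alpha genes showed a smaller shift, with *Hba-a2* at 36.3% and 35.4% of *Hba-a1* plus *Hba-a2* UMIs in primitive and 43.9% and 44.0% in definitive barcodes. These values rest on how reads of near copies were assigned, which was not tested, and they have no test since globin genes chose the members.

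Among primitive barcodes of at least 10000 UMIs, a higher embryonic share went with a higher *Hbb-bt* share of the adult beta UMIs. The rank correlation over barcodes was 0.58 in 121 control and 0.53 in 298 mutant barcodes. Both measures contain the adult beta UMIs, and the barcodes of a library share its preparation, so these are descriptions without a test.

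Alpha chains took a larger part of globin in primitive than in definitive barcodes. They held 32.5% of alpha plus beta UMIs in control and 30.9% in mutant primitive barcodes, and 21.4% and 20.5% in definitive barcodes. The theta genes *Hbq1a* and *Hbq1b* together had under 200 UMIs in the control primitive sum, with 76 and 123. *Hbb-bh2* had 11 UMIs in control and 5 in mutant primitive barcodes and none in definitive barcodes.

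Primitive barcodes were deeply sequenced, and globin filled most of each. The median was 23182 UMIs in control and 23641 in mutant primitive barcodes, of which 85.0% and 83.1% were globin. The UMIs of other genes had a median of 3160 and 3706, against 1772 and 1989 in definitive barcodes. Mitochondrial transcripts were 2.40% and 2.18% of the non-globin UMIs in primitive and 5.74% and 5.79% in definitive barcodes. Transcripts of ribosomal proteins were 20.3% and 22.2% of the non-globin UMIs in primitive and 10.6% and 13.4% in definitive barcodes.

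A minor part of the members was shallow. There were 26 control and 65 mutant primitive barcodes under 3000 UMIs, with medians of 1332 and 1338 UMIs. They had less globin (medians of 60.2% and 58.7% of UMIs) and more mitochondrial transcripts (4.13% and 2.72% of UMIs) than the median member.

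*Malat1*, a long RNA kept in the nucleus (chromosome 19 from 5795690 to 5802672), was higher in primitive barcodes among the deeply sequenced ones. In barcodes of at least 10000 UMIs, it was a median 3.87% of non-globin UMIs in 121 control and 3.95% in 298 mutant primitive barcodes. In definitive barcodes of this depth it was a median 0.162% in 53 control and 0.104% in 95 mutant barcodes. At least 50 *Malat1* UMIs were found in 93.4% (95% Clopper-Pearson interval 87.4 to 97.1) and 96.0% (93.1 to 97.9) of these primitive barcodes, and in 11.3% (4.27 to 23.0) and 11.6% (5.92 to 19.8) of the definitive ones. The intervals cover counting error only. The rest of this depth held *Malat1* too, at a median of 1.10% and 1.18%. Under 3000 UMIs the gap was smaller, with medians of 0.772% and 0.738% in primitive and 0.373% and 0.529% in definitive barcodes. From 3000 to under 10000 UMIs, where there were 2 control and 4 mutant definitive barcodes, it was 1.94% and 0.528% against 3.27% and 0.356%, and turned in the control. In the sums of both classes, *Malat1* was higher in primitive barcodes by 2.62 ± 0.15 (SE) on the log2 scale (edgeR, adjusted p = 1.01e-63, n = 2 libraries).

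**Figure D3:**
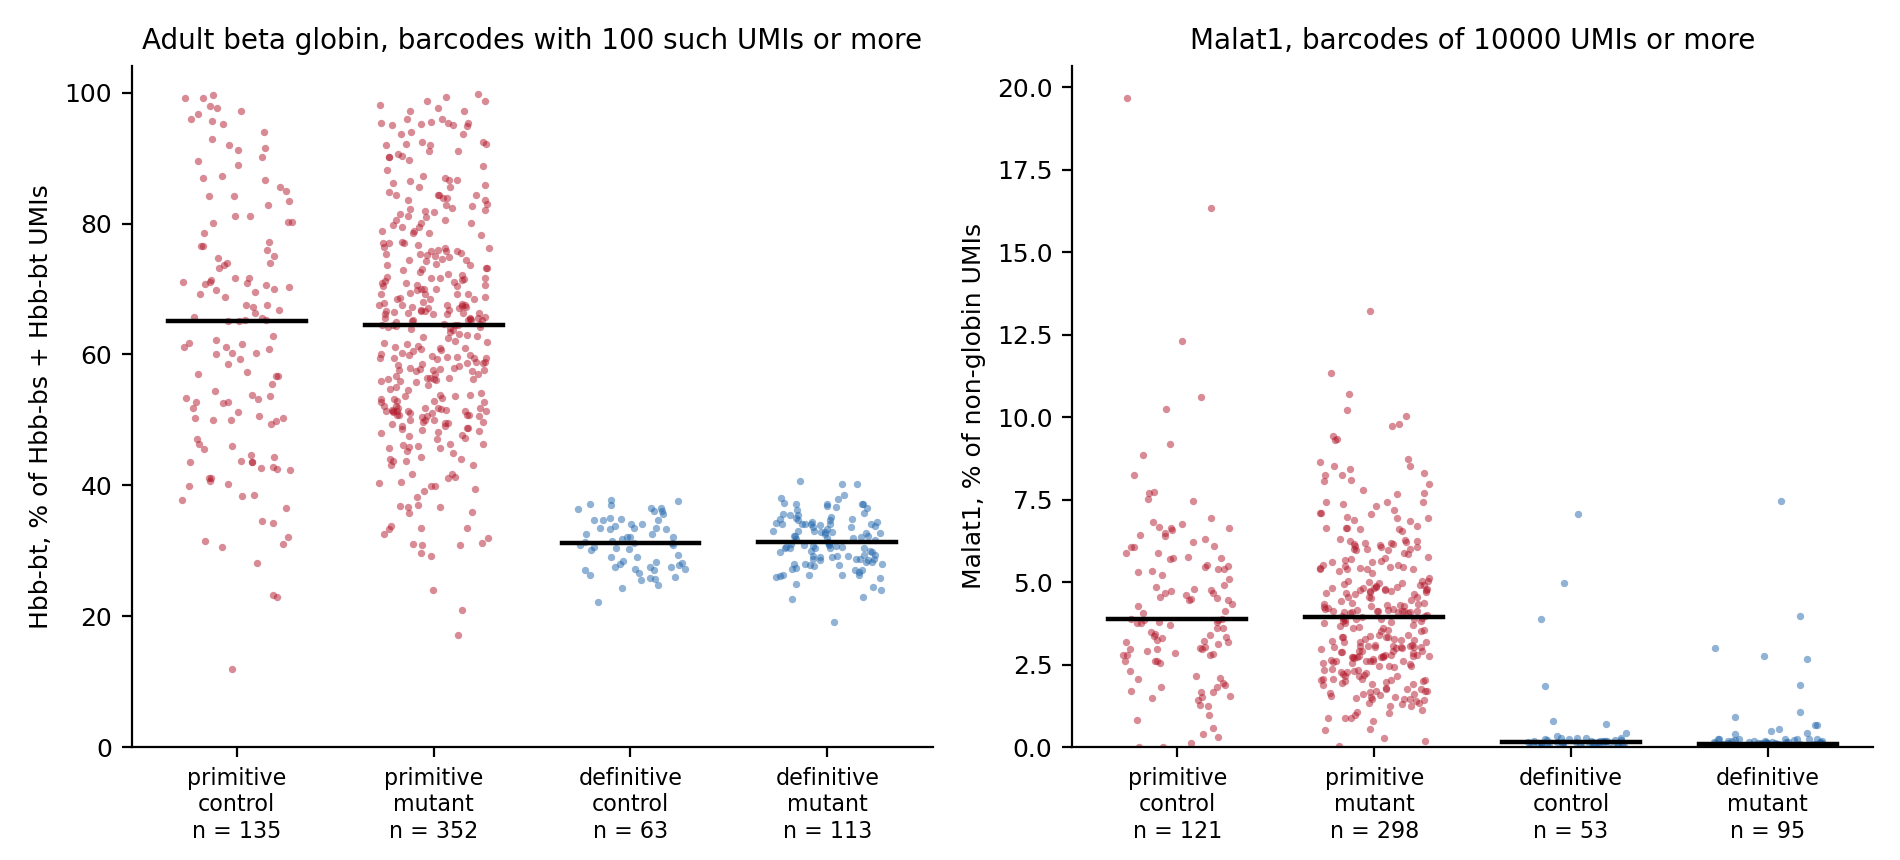
Left, *Hbb-bt* as a percent of *Hbb-bs* plus *Hbb-bt* UMIs, for barcodes with at least 100 such UMIs. Right, *Malat1* as a percent of non-globin UMIs, for barcodes of at least 10000 UMIs. Points are barcodes, placed sideways at random, and lines are medians. The primitive points spread widely on the left and lie mostly above the definitive points on both sides.

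Genes other than globins were then compared between primitive and definitive barcodes, which the rule did not use. UMIs were summed over the barcodes of each class in each library, and edgeR's quasi-likelihood test was fitted with the library as a block, so n = 2 libraries and each gave both classes. Levels are counts per 1000000 non-globin UMIs (CPM), and a fold change sets primitive over definitive. Fold changes are scaled by the TMM factors of edgeR, so they differ from the plain ratio of 2 CPM values, in some genes near no change also in sign, abundant ones included. Of 8755 genes tested, 472 were higher (5.39%) and 289 lower (3.30%) in primitive barcodes at an adjusted p under 0.05. The sign was the same in both libraries for 463 of the higher and 282 of the lower genes. With 1 degree of freedom left among the 4 sums, the spread was shared over all genes, and the p-values concern the difference of the classes in these pooled libraries only.

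Some members also held transcripts of eye tissue. At least 10 UMIs of the marker lists of other cell types were found in 11 control and 37 mutant primitive barcodes and in 4 and 10 definitive barcodes. Retinal progenitor markers, as in the rest, were all detected and summed to 719 and 676 CPM in primitive, 726 and 1591 CPM in definitive barcodes and 2536 CPM in the control rest. Endothelium markers summed to 32.3 and 22.3 CPM, and macrophage markers to 8.50 and 8.22 CPM, with *C1qa* at 0 and 4 UMIs. Without the barcodes at or over 10 marker UMIs, a set chosen after seeing the data, 618 genes were higher and 379 lower. Of the 741 called genes that could be tested again, 714 were called in the same direction. How many genes were tested in that fit is not given here, so its counts have no share beside them. Scrublet, a doublet caller, marked 4 control and 9 mutant members.

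The genes that stood highest in primitive barcodes had few or no UMIs in definitive barcodes. *Trib3*, a pseudokinase of the stress response, had 91 UMIs in control and 182 in mutant primitive barcodes and none in definitive barcodes. Against a floor of 3 UMIs over both libraries, with its own count taken as exact, it was 19.9-fold higher (edgeR, adjusted p = 8.93e-22). *Fbxo2*, a ubiquitin ligase subunit that binds glycoproteins, had 29 and 73 UMIs and none in definitive barcodes. Against the same floor it was 7.43-fold higher. *Trib3* and *Fbxo2* reached the count minimum of the fit through primitive UMIs alone. The top barcode held 9.89% and 3.30% of the *Trib3* UMIs and 20.7% and 20.5% of the *Fbxo2* UMIs.

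Several other genes had 1 to 3 UMIs in all definitive barcodes together. *Fam174b* stood at 398 and 294 CPM in control and mutant primitive barcodes and at 12.1 and 2.98 CPM in definitive barcodes, a ratio of 53.6 over both libraries (counting interval 18.3 to 260). *Acp5*, tartrate resistant acid phosphatase, stood at 328 and 248 CPM against 0 and 8.94 CPM, a ratio of 44.8 (15.3 to 218). *Tspan18*, a tetraspanin, stood at 131 and 102 CPM against 6.05 and 0 CPM, a ratio of 54.9 (9.76 to 2176). One primitive barcode of the control library held 48.1% of its *Tspan18* UMIs.

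*Lmx1a*, a homeobox factor, reached 93.5 and 71.6 CPM in primitive barcodes and had 1 UMI in all definitive barcodes. *Fos*, an immediate early factor, reached 119 and 100 CPM and had 2 UMIs there. *Arhgap23* reached 52.7 and 43.4 CPM against 1 UMI. Few barcodes of the rest held them. After thinning to 1000 non-globin UMIs *Lmx1a* was found in 10.1% and 6.96% of primitive barcodes and in 0.0659% and 0.0192% of the rest. *Utp6*, of ribosome assembly, reached 86.7 and 81.6 CPM against 2 UMIs, and *Nrtn*, the growth factor neurturin, 85.0 and 113 CPM against 3 UMIs.

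*Hmox1* and *Ackr3* were also among the 12 highest genes. *Hmox1*, heme oxygenase, which breaks heme down, stood at 996 and 637 CPM in primitive and at 72.6 and 5.96 CPM in definitive barcodes, higher by 5.06 ± 0.29 (SE) on the log2 scale (edgeR, adjusted p = 2.12e-65). All 12 control definitive UMIs of *Hmox1* came from 1 barcode. *Ackr3*, a scavenging chemokine receptor, stood at 428 and 282 CPM against 18.1 and 17.9 CPM, higher by 4.50 ± 0.34 (adjusted p = 9.79e-37).

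The genes named among the 12 lowest in primitive barcodes were detected in both classes and were lower in both libraries. *Pla2g16*, a phospholipase, stood at 13.6 and 11.7 CPM in primitive and at 399 and 587 CPM in definitive barcodes, lower by -5.08 ± 0.30 (SE) on the log2 scale (edgeR, adjusted p = 1.08e-61). *Lmo2*, a bridging factor of the erythroid complex with *Tal1* and *Gata1*, stood at 20.4 and 7.63 CPM against 514 and 352 CPM (-4.80 ± 0.30, adjusted p = 9.99e-54). *Mpp1*, a membrane scaffold of red cells, stood at 37.4 and 47.5 CPM against 949 and 980 CPM (-4.18 ± 0.23, adjusted p = 3.18e-68). In each case both primitive levels lay below both definitive levels.

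*Fam126a* stood at 83.3 and 71.6 CPM in primitive and at 1409 and 1335 CPM in definitive barcodes (-3.85 ± 0.21, edgeR adjusted p = 1.11e-68). After thinning to 1000 non-globin UMIs *Mpp1* was found in 0.775% and 5.38% of primitive, 63.0% and 69.1% of definitive barcodes and 2.18% and 2.07% of the rest. The medians of non-globin UMIs before thinning were 3160 and 3706 in primitive, 1772 and 1989 in definitive barcodes and 11092 and 10762 in the rest.

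The others named among the 12 lowest lay between -4.01 and -3.28 on the log2 scale. *Cd47*, the signal that holds off phagocytes, stood at 20.4 and 20.5 CPM against 375 and 399 CPM. *Ube2c*, a ubiquitin conjugating enzyme of mitosis, stood at 112 and 276 CPM against 2316 and 2172 CPM. *Smox*, *Ssx2ip* and *Dcaf12* stood at -4.01, -3.58 and -3.57.

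**Figure D4:**
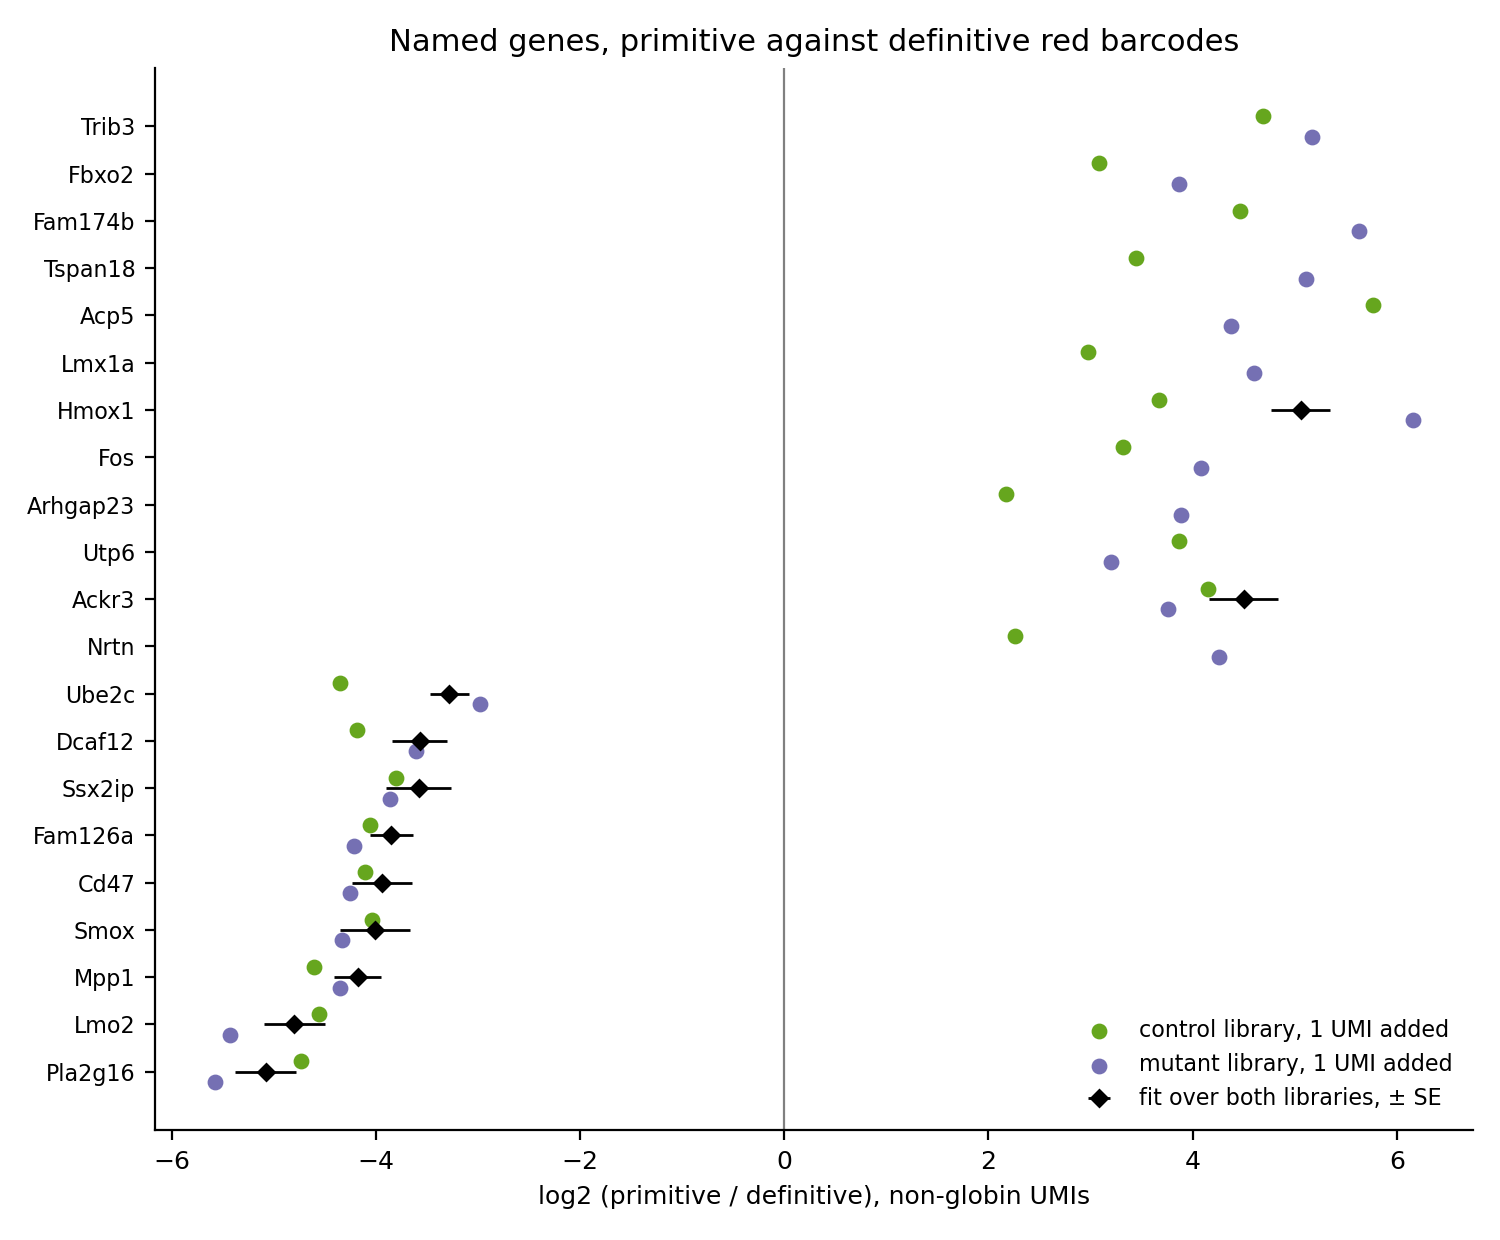
The 12 genes that were highest and 9 of the 12 that were lowest in primitive barcodes, with the log2 ratio of primitive over definitive on the horizontal axis. Circles are the ratio in each library with 1 UMI added to each sum, and diamonds with bars are the edgeR fold change ± SE over both libraries, drawn where definitive barcodes had over 3 UMIs. Both circles of each gene lie on the same side of 0.

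Enzymes of heme synthesis were mostly lower in primitive barcodes, with 6 of 8 tested lower and 1 higher, and a median of -1.18 against 0.10 over all genes tested. *Alas2*, which starts the pathway in red cells, stood at 2420 and 2139 CPM against 7523 and 6194 CPM (-1.27 ± 0.16, edgeR adjusted p = 3.01e-14). *Cpox* had the lowest ratio, at 56.1 and 52.2 CPM against 393 and 217 CPM (-2.08 ± 0.26, adjusted p = 1.26e-13). *Fech*, which inserts the iron, was lower by -1.09 ± 0.17 (adjusted p = 4.42e-09). *Uros* was the enzyme that was higher, by 1.23 ± 0.36 (adjusted p = 0.00944).

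Of 12 genes for iron and heme handling, 4 were higher and 2 lower. The ferritin chains were among the most abundant transcripts of primitive barcodes after globin. *Fth1* stood at 76600 and 71919 CPM against 39352 and 35008 CPM (1.31 ± 0.14, edgeR adjusted p = 2.95e-19), and *Ftl1* at 36922 and 30188 CPM against 23543 and 19725 CPM (0.94 ± 0.14, adjusted p = 1.12e-09). *Abcb10*, a mitochondrial transporter, was higher by 1.53 ± 0.34 (adjusted p = 2.19e-04), and *Hmox1* is given above. *Slc25a37*, mitoferrin, which brings iron into mitochondria, was lower by -1.90 ± 0.18 (adjusted p = 2.38e-24), and *Abcg2* by -2.55 ± 0.43 (adjusted p = 9.39e-08).

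Among 12 erythroid transcription factors, 1 was higher and 3 lower. *Tal1*, a master factor of blood formation, stood at 342 and 246 CPM in primitive and at 48.4 and 17.9 CPM in definitive barcodes (3.60 ± 0.32, edgeR adjusted p = 1.62e-26). Its partner *Lmo2* went the other way, as given above. *Klf1*, the main activator of adult beta globin, stood at 86.7 and 64.6 CPM against 212 and 149 CPM (-0.93 ± 0.28, adjusted p = 0.0108), and *Foxo3* was lower by -1.29 ± 0.28 (adjusted p = 7.53e-05). *Gata1* had 14 and 23 UMIs in primitive and 3 and 2 in definitive barcodes and did not pass (1.06 ± 0.76, adjusted p = 0.623).

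Regulators of the globin switch were scarce. Of 11 tested, 1 was lower and none was higher. *Sox6*, a repressor of embryonic beta globin, had 5 UMIs in 550 primitive and 20 UMIs in 177 definitive barcodes, a summed level 18.3-fold lower (counting interval 6.66 to 62.4, edgeR adjusted p = 9.42e-05). *Bcl11a*, its partner in this repression, had 6 and 18 UMIs in primitive and 1 and 3 in definitive barcodes and did not pass (0.67 ± 0.92, adjusted p = 0.896). *Igf2bp1* had 17 and 71 UMIs against 6 and 21 (-0.21 ± 0.43, adjusted p = 0.940).

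Of 18 genes tested for the red cell membrane and skeleton, 6 were lower, 3 higher and 9 did not pass. Besides *Cd47*, *Cd24a* was lower by -2.87 ± 0.18 (edgeR adjusted p = 9.99e-54) and *Epb41*, protein 4.1 of the skeleton, by -0.92 ± 0.17 (adjusted p = 4.55e-06). *Slc4a1*, the anion exchanger band 3, stood at 563 and 490 CPM against 1083 and 819 CPM (-0.53 ± 0.18, adjusted p = 0.0463). *Ermap*, *Add2* and *Kel*, of blood groups and skeleton, were higher by 1.69 ± 0.29, 1.57 ± 0.39 and 1.07 ± 0.26. *Sptb*, of the spectrin skeleton, did not pass (-0.34 ± 0.27, adjusted p = 0.698).

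Of 9 channels and carriers tested 2 were higher and 2 lower. The water channels *Aqp3* and *Aqp8* each had 31 UMIs in primitive and none in definitive barcodes (edgeR adjusted p = 0.0164 and 0.0116). Both reached the count minimum of the fit through primitive UMIs alone. Against a floor of 3 UMIs over both libraries, with the 31 UMIs taken as exact, each was 2.26-fold higher. *Slc2a1*, the glucose carrier, was lower by -2.44 ± 0.26 (adjusted p = 3.59e-19), and *Car2*, carbonic anhydrase, by -0.62 ± 0.16 (adjusted p = 0.00158). *Car1*, the other red cell carbonic anhydrase, had no UMI in primitive and 8 in definitive barcodes. Against the same floor, with the 8 UMIs taken as exact, it was 12.2-fold lower. It was under the count minimum and not tested.

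Late maturation and organelle clearance genes were lower in 8 of 15 tested and higher in none, with a median of -0.74. *Tspo2*, a transporter of late red cells, stood at 126 and 157 CPM against 1131 and 1135 CPM (-2.68 ± 0.20, edgeR adjusted p = 2.35e-37). *Trim10* (-1.76 ± 0.20) and the ubiquitin enzyme *Ube2o* (-1.37 ± 0.19), which clears ribosomes, were lower too. *Bnip3l*, which marks mitochondria for removal, did not pass, at 2035 and 1724 CPM against 2848 and 2631 CPM (-0.24 ± 0.16, adjusted p = 0.580). *Isg20* was called on 1 primitive and 10 definitive UMIs, the latter from the mutant library alone.

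Redox genes were split, with 2 of 8 higher and 4 lower. *Prdx2* (-0.48 ± 0.14, edgeR adjusted p = 0.0140) and *Gpx1* (-1.02 ± 0.15, adjusted p = 2.94e-10), which remove peroxides, were lower, and *Sod1* was higher (1.04 ± 0.32, adjusted p = 0.0178). In glycolysis 3 of 11 were higher and 1 lower. *Gapdh* stood at 2511 and 2392 CPM against 1349 and 1811 CPM (0.95 ± 0.17, adjusted p = 4.04e-07), and *Eno1* was lower by -0.66 ± 0.20 (adjusted p = 0.0184).

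Genes of the cell cycle were lower where they passed. Of 12 S phase genes 2 were lower, *Rrm2* (-2.01 ± 0.28, edgeR adjusted p = 2.71e-11) and *Pcna* (-1.21 ± 0.40, adjusted p = 0.0299), and none was higher. Of 14 G2/M genes 3 were lower, *Ube2c*, *Nusap1* (-3.19 ± 0.26, adjusted p = 9.81e-33) and *Birc5* (-0.70 ± 0.24, adjusted p = 0.0453). *Mki67* stood at 42.5 and 69.3 CPM in primitive and at 224 and 77.5 CPM in definitive barcodes and did not pass (-0.86 ± 0.31, adjusted p = 0.0643). Several G2/M genes that did not pass had opposite signs in the libraries. *Top2a* had log2 ratios of -1.83 in control and 0.62 in mutant barcodes, and *Cenpf* -1.55 and 0.78. Without the barcodes holding markers of other cells, 3 of 12 S phase and 6 of 14 G2/M genes were lower, among 379 lower genes in that fit. The share called lower over all genes of that fit is not given here, so these counts are not read as a result about the lists.

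Of 6 early erythroid and progenitor genes tested 1 was higher and none lower, *Hsp90ab1* (0.55 ± 0.16, edgeR adjusted p = 0.0132). *Kit* had 2 and 3 UMIs and *Cd34* 3 and 1 UMIs in primitive barcodes. Of 6 adhesion genes 1 was higher, *Cd9*, with 32 and 61 UMIs against 0 and 3 (ratio over both libraries 6.78, counting interval 2.25 to 33.5, adjusted p = 1.32e-04). Of 4 nuclear RNAs 2 were higher, *Malat1* and *Neat1* (1.81 ± 0.31, adjusted p = 3.56e-07).

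Genes that respond to dissociation stress were higher in 6 of 10 tested and lower in 1, with a median of 2.13. *Junb* stood at 265 and 200 CPM against 36.3 and 8.94 CPM (3.90 ± 0.37, edgeR adjusted p = 2.81e-24), and *Dnajb1* at 95.2 and 88.0 CPM against 24.2 and 20.9 CPM (2.33 ± 0.43, adjusted p = 2.02e-06). *Jund* was lower (-0.56 ± 0.17, adjusted p = 0.0184). *Hspa1a* had opposite signs in the libraries, with 3 UMIs in control and 183 in mutant primitive barcodes against 1 UMI in each definitive sum. A part of dissociation in these differences was not tested.

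Lists of other cells were called for a few members. *Tubb3* and *Isl1* of retinal neurons and *Dct* of pigment cells were higher, at 1.47 ± 0.26, 2.26 ± 0.68 and 1.69 ± 0.56, and *Sfrp2* of retinal progenitors was lower, at -0.67 ± 0.22. One mutant primitive barcode held 70.7% of the *Dct* UMIs. Without the barcodes holding at least 10 marker UMIs no gene of these lists was called, and *Tubb3*, *Isl1* and *Dct* stood at -0.61, -0.34 and -0.49. These barcodes were left out for UMIs of the same markers, so the lost calls follow in large part from the choice. No gene of the mesenchyme, endothelium, platelet or other white cell lists was called in the edgeR fit. No macrophage, lens or liver and maternal blood marker had enough UMIs to be tested, and *Alb*, *Afp* and *Serpina1a* had none in red barcodes.

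The likeness of other genes to *Hbb-y* was ranked over all red barcodes. The rule used *Hbb-y* to part these barcodes, so the ranking largely restates the difference of the classes and is no further result. Over 221 control and 506 mutant barcodes and 735 genes, the rank correlation with the share of *Hbb-y* in globin was highest for *Malat1* (0.61 and 0.61). Among those that followed were *Rplp0*, *Rpsa*, *Rplp1*, *Rps2*, *Atp5j2* and *Nudt4*, whose lower value of both libraries lay between 0.58 and 0.48. Most of these are proteins of the ribosome, and *Atp5j2* is a subunit of the mitochondrial ATP synthase. *Nudt4*, a phosphohydrolase of inositol phosphates, stood at 16903 and 14977 CPM in primitive and 1494 and 909 CPM in definitive barcodes. These are descriptions over barcodes of the same libraries.

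Members differed among themselves along the share of *Hba-x* in alpha globin. Primitive barcodes of at least 10000 UMIs were put into 4 groups of like size by this share in each library, a division chosen after the values were seen, and no test was made. From the lowest to the highest group the median share went from 16.2% to 44.2% in control and from 21.4% to 50.4% in mutant barcodes. *Hbb-bh1*, the other early embryonic chain, went with it, at 0.104% and 0.386% of embryonic beta UMIs in the lowest and highest control group and at 0.106% and 0.560% in the mutant. The embryonic share of beta globin was nearly flat, at 82.9% and 85.2% (control) and 83.2% and 85.8% (mutant).

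Some transcripts other than globins went the same way from the lowest to the highest group in both libraries, and others did not. *Malat1* was 5.71% of non-globin UMIs in the lowest and 2.82% in the highest control group, and 5.52% and 2.66% in the mutant library. Ribosomal protein transcripts went from 17.8% to 27.1% and from 18.2% to 31.7%. *Nudt4* stood at 21818 and 7809 CPM and at 27109 and 6160 CPM. *Trib3* stood at 131 and 78.2 CPM in control and at 188 and 35.5 CPM in mutant barcodes. *Pdzk1ip1* was at 961 and 541 CPM and at 1190 and 388 CPM. In the control library *Nudt4* and *Pdzk1ip1* were highest in the second group, at 23458 and 1364 CPM, and *Trib3* in the second and the third, at 229 CPM. *Alas2*, *Slc4a1* and *Ube2c* went opposite ways in the 2 libraries. *Alas2* stood at 1838 and 2319 CPM in the lowest and highest control group and at 2625 and 1637 CPM in the mutant ones, *Slc4a1* at 412 and 475 CPM and at 623 and 388 CPM, and *Ube2c* at 118 and 91.2 CPM and at 37.6 and 403 CPM. The 4 groups had medians between 24138 and 28300 UMIs, and non-globin UMIs with medians of 3261 and 4386 in the lowest and highest control group and 3774 and 4443 in the mutant.

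**Figure D5:**
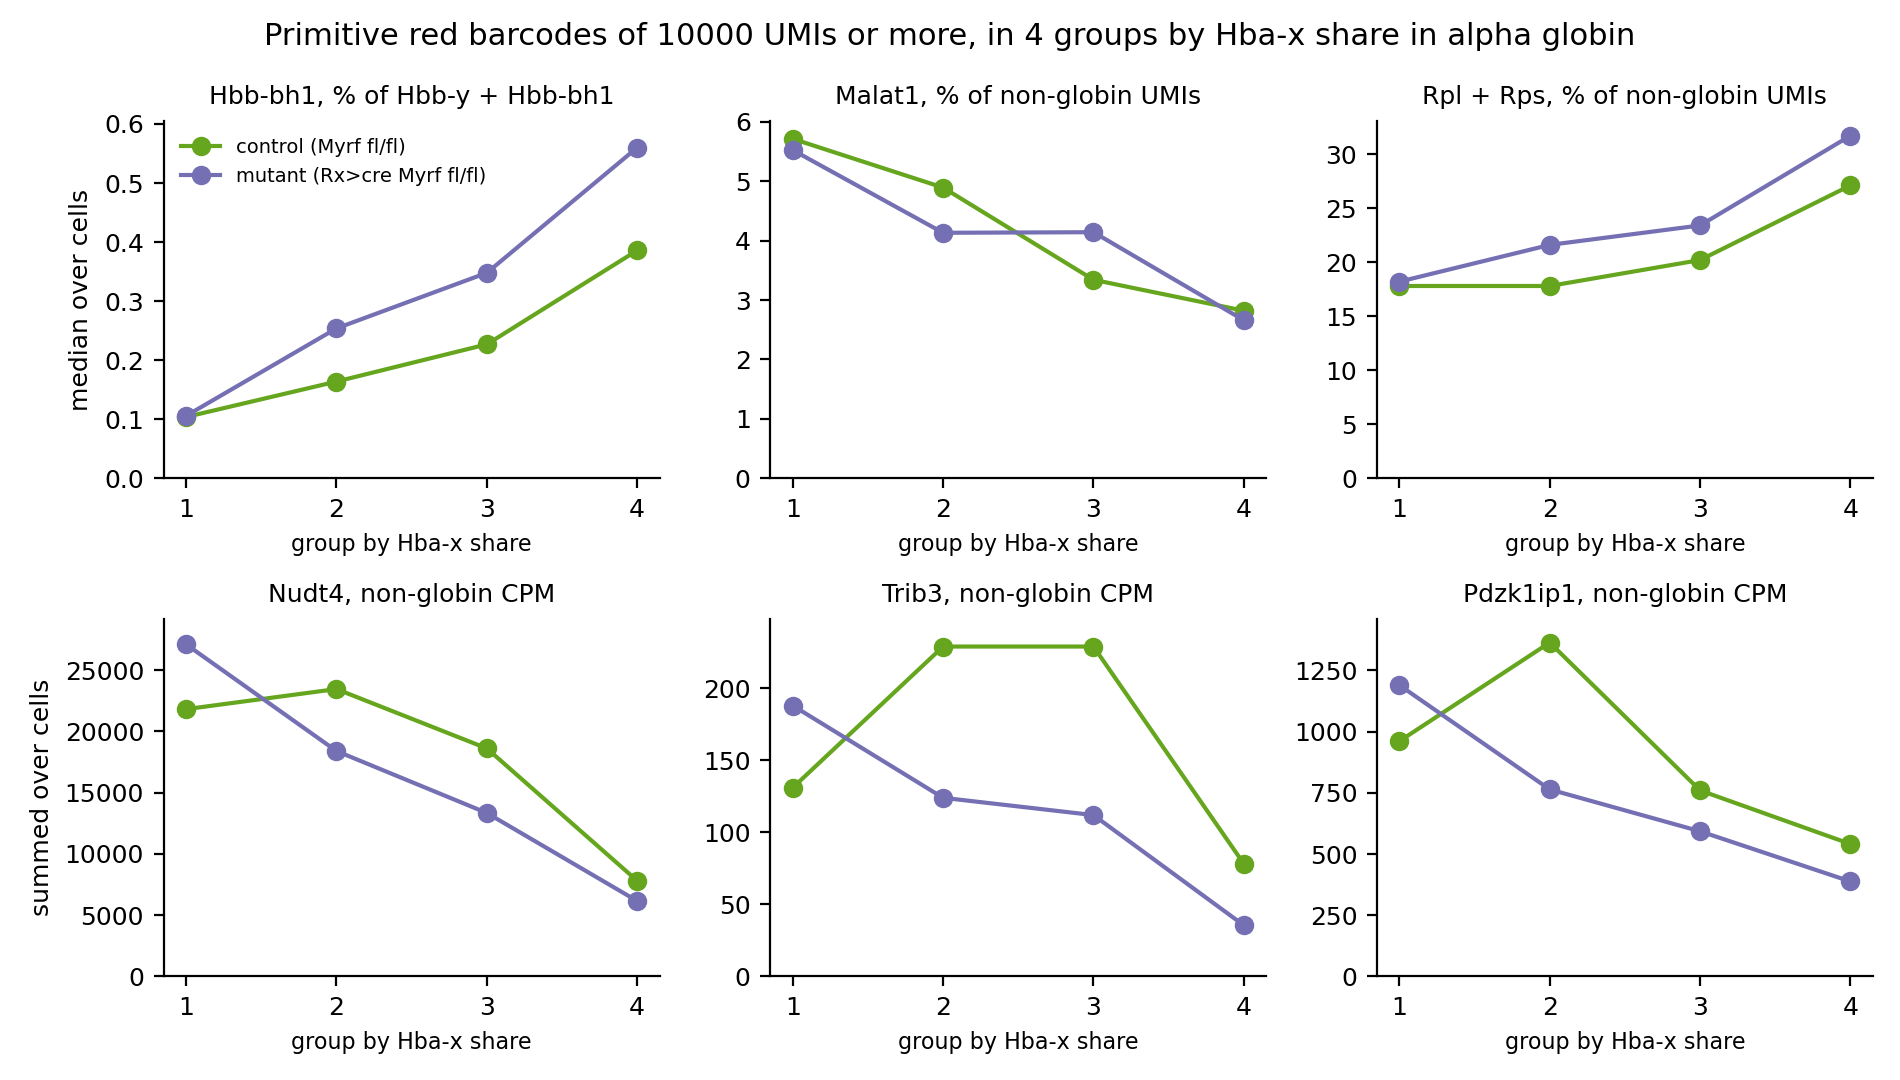
Primitive barcodes of at least 10000 UMIs in 4 groups by the *Hba-x* share of alpha globin, 1 being the lowest. The upper row gives medians over barcodes in percent, the lower row the CPM of non-globin UMIs summed over the group, for the control and the mutant library. *Hbb-bh1* and ribosomal protein transcripts are highest in group 4, and *Malat1*, *Nudt4*, *Trib3* and *Pdzk1ip1* lowest.

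Over single barcodes, the rank correlation with the *Hba-x* share was 0.30 in control and 0.52 in mutant barcodes for *Hbb-bh1*, -0.51 and -0.48 for *Malat1*, and 0.49 and 0.56 for ribosomal proteins. For total UMIs it was 0.06 and -0.08, and for non-globin UMIs 0.26 and 0.22. The points share library and preparation, and no p is given.

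The share of primitive barcodes differed between the 2 libraries. They made up 2.86% (95% Clopper-Pearson interval 2.44 to 3.34) of 5519 kept control barcodes and 6.15% (5.57 to 6.77) of 6374 kept mutant barcodes. Definitive barcodes went the same way, at 1.14% (0.878 to 1.46) and 1.79% (1.48 to 2.14). Of red barcodes, 71.5% of the control (65.1 to 77.3) and 77.5% of the mutant library (73.6 to 81.0) were primitive, and the intervals overlapped. The amount of blood left in the dissected eyes and the genotype cannot be told apart with 1 library each, and fewer red cells cannot be told from fewer cells captured.

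*Myrf*, the deleted gene, was nearly absent from members. It had 1 UMI in 158 control and 0 UMIs in 392 mutant primitive barcodes, against 251 and 113 UMIs in the rest. The libraries shared 72 barcode sequences, none of them among red barcodes.

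Levels within primitive barcodes were close between the libraries. Of 3143 genes with at least 50 UMIs in both primitive sums together, 56 (1.78%) were past 2-fold higher and 35 (1.11%) past 2-fold lower in the mutant library, with a median log2 ratio of 0.02. Among definitive barcodes, of 1038 genes 15 (1.45%) were past it higher and 30 (2.89%) lower. The ratios have intervals for counting error only.

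The named genes that were lowest in the mutant library had much of their control UMIs in 1 barcode. *Gal*, a neuropeptide, had 229 UMIs in control and 49 in mutant primitive barcodes (log2 ratio of mutant over control -3.74, interval -4.23 to -3.31), and 1 control barcode held 97.4% of the control UMIs. *A330069E16Rik*, which the naming rule leaves out and which is given after its values were seen, was lower still (188 and 21 UMIs, -4.64), with 99.5% of its control UMIs in 1 barcode. *Nefm*, *Stmn2*, *Rtn1*, *Igfbpl1*, *Gng3*, *Isl1* and *Tubb3*, which are genes of neurons, followed with ratios from -2.58 to -1.43. For each of them a single control barcode held between 40.0% and 72.1% of the UMIs.

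On the other side, *Hspa1a*, an inducible heat shock protein, had 3 and 183 UMIs (3.99, interval 2.83 to 6.69), and 1 mutant barcode held 45.9%. *Dct* (2.34) and *Neurog2* (2.19) had 70.7% and 78.5% of their mutant UMIs in 1 barcode. *Irx3*, *Nusap1*, *Hist1h1e*, *Spc25* and *Pth1r* had ratios from 2.50 to 1.84, with the top mutant barcode at 10.3% to 18.1%. *Nusap1*, *Spc25* and *Hist1h1e* are genes of dividing cells. Every gene of the G2/M list had a higher CPM in mutant than in control primitive barcodes. *Cenpf* stood at 37.4 CPM in control and 133 CPM in mutant barcodes, and *Mki67* at 42.5 and 69.3 CPM. S phase genes went both ways, with *Mcm4* at 37.4 and 27.6 CPM and *Tipin* at 34.0 and 63.4 CPM. These differences by library were not tested.

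Without the barcodes holding at least 10 marker UMIs of other cells, 14 genes were past 2-fold higher and 18 lower of 1895. *Hspa1a* stayed at 3.99 (2.82 to 6.69), and *Hist1h1e* and *Nusap1* fell to 1.55 and 1.17. *Irx3*, *Spc25*, *Pth1r*, *Dct* and *Neurog2* were no longer among the genes past 2-fold with at least 50 UMIs. *Mt1*, metallothionein, which binds zinc and copper, was the most abundant of these genes, chosen after its values were seen, at 2240 CPM in control and 4600 CPM in mutant primitive barcodes (1.04, interval 0.94 to 1.14). In all definitive barcodes *Mt1* stood at 5322 and 3828 CPM. *Slc30a1*, a zinc exporter, also chosen after its values were seen, went the other way in primitive barcodes, with 76.6 and 29.3 CPM (-1.39, interval -2.11 to -0.67).

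Red cell genes of the members differed by library to unlike degrees. The middle 50% of the 3143 genes had log2 ratios of mutant over control between -0.23 and 0.24. *Alas2* stood at 2420 CPM in control and 2139 CPM in mutant primitive barcodes, *Slc4a1* at 563 and 490 CPM, and *Tal1* at 342 and 246 CPM. *Hmox1* was lower in the mutant library, at 996 and 637 CPM, without passing 2-fold. *Ube2c* was at 112 and 276 CPM, past 2-fold higher. It was found in 20.3% of control and 19.1% of mutant members. The top barcode held 15.2% of the control and 21.5% of the mutant *Ube2c* UMIs. With barcodes of at least 10 marker UMIs left out, *Ube2c* was no longer among the genes past 2-fold with at least 50 UMIs.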

How the data were processed

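The authors dissociated e13.5 eye cups with papain, pooled 3 samples per genotype and made 1 library of each on the 10X Genomics 3′ platform. They deposited UMI counts per gene and barcode of called cells, not normalized. The submitters' processing notes name Cell Ranger 7.1.0, Seurat 4.1.1 and mm10, and whether intronic reads were counted is not given in the sources used here. The libraries held 63483835 control and 75228861 mutant UMIs in 6039 and 6754 barcodes. The methods' filters of 200 genes and 15% mitochondrial UMIs were applied. Their upper limit of 2000 UMIs was run only as an alternative.

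Members were found by the globin rule, without clustering. Non-globin counts were summed per class and library, and genes with at least 10 UMIs over the 4 sums were tested with edgeR 4.0.16 (TMM, quasi-likelihood, library as a block) and Benjamini-Hochberg adjustment. The SE is the fold change over the normal deviate of its p-value. Alternatives used DESeq2 in pydeseq2 0.5.4, other limits and Scrublet in scanpy 1.11.5, which marked 68 control and 65 mutant kept barcodes at an expected rate of 5% and left doublets of like cells unmarked. The fit was tested on simulated counts. Genotypes were not tested, with intervals from Clopper-Pearson, Poisson and conditional binomial limits at a level of 95%, which cover counting error only. Coordinates are from GENCODE M21 and promoters from RefSeq (9 of 10 globin genes matched).

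The genes named are 2 to 4 of each list by UMIs and ratio, others of a list chosen after their values were seen, the 12 largest fold changes each way among called genes with the same sign in both libraries and at least 100 UMIs, the 8 largest ratios by library each way and the 8 genes most like *Hbb-y*. Globin, mitochondrial, ribosomal protein, predicted and sex-linked genes were left out of the middle groups. The members and gene lists were chosen with earlier results of these data known. Some genes that these rules would name are not reported here.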

Additional observations from a re-analysis of the deposited data

Results flagged for a closer look

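A signal outside the main measurement was seen in barcodes that were left out for mitochondrial share or few genes. Among them, 3 control and 7 mutant barcodes were over the globin limit and had more embryonic than adult beta globin UMIs.

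*Hspa1a* had opposite signs in the 2 libraries, with log2 ratios of primitive over definitive of -0.83 (control) and 4.18 (mutant). *Sfrp2*, a retinal progenitor marker, had 0.10 and -1.71, and *Dct*, a pigment cell marker, -1.15 and 2.20. These differences between libraries were not tested.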

How the results depend on the processing

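With 1 library per genotype, shares and ratios by library carry counting error only, and genes with few UMIs in 177 definitive barcodes limit what could be detected. The share of primitive barcodes moved to 3.89% in control and 8.56% in mutant at a mitochondrial limit of 5%, and to 1.84% and 4.58% at no more than 2000 UMIs. Of red barcodes it was 71.5% and 77.5%. Against 472 higher and 289 lower genes, DESeq2 called 197 and 154, thinning to 3000 UMIs 157 and 109, and no replicate block 304 and 201, where 505 of the 761 genes were again called in the same direction. After thinning these were 254 of the 600 that could be tested. The libraries' replicate numbers pair nothing beyond this block. At no more than 2000 UMIs edgeR called 0 and 0 of 607 genes, with 16 at an unadjusted p under 0.05. By library, the 56 higher genes became 0 at no more than 2000 UMIs, 14 without barcodes holding other markers (chosen after seeing the data), 108 with all genes in the totals, 209 at a minimum of 20 UMIs and 173 as means over barcodes. The 35 lower genes became 2, 18, 16, 203 and 140, and 19 and 20 at a globin share of 50% and an embryonic share of 75%.

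The embryonic percent of beta globin UMIs moved from 82.7% to 82.8% at a globin share of 50%, 84.3% at the embryonic limits, 82.9% without Scrublet doublets and without other markers, and 84.9% at no more than 2000 UMIs in the control. In the mutant library it moved from 83.4% to 83.4%, 83.9% (embryonic limits), 83.1% (no more than 2000 UMIs) and 83.5% (without other markers). Median UMIs moved to 25479 and 25910 at 3000 UMIs or more.

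Of 88 called genes named or listed, 58 were again called by DESeq2 and 63 with no block. After thinning 46 were again called, 35 were weaker and 1 was reversed, and the others were not tested. Reversed log2 fold changes at no more than 2000 UMIs were 0.29 for *Urod*, 0.63 for *Slc4a1*, 0.23 for *Rhd*, -1.66 for *Kel*, -0.02 for *Ermap*, 0.44 for *Ube2o*, -0.10 for *Aldoa*, 1.86 for *Birc5*, 0.73 for *Sfrp2* and -0.52 for *Tubb3*, and the cause was not tested. *Add2* was -0.06 after thinning. *Dct* was -0.23 at a globin share of 50%, and without other markers *Tubb3*, *Isl1* and *Dct* were -0.61, -0.34 and -0.49. Without the mutant library *Hspa1a*, *Sfrp2* and *Dct* were -0.83, 0.10 and -1.15, and without the control library they were 4.18, -1.71 and 2.20.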
